A study of Rattus norvegicus with 4 samples.

Results

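The genes described here are early-response transcription factors and regulators: the orphan nuclear receptors Nr4a1 and Nr4a3, the zinc finger factors Egr1 and Egr2, the immediate early response genes Ier2, Ier3 and Ier5, the Krüppel-like factors Klf4 and Klf6, and Myc. They were chosen by name, and each gene was represented by its annotated open reading frame (ORF) with the most footprint counts summed over the libraries. Of the 10 genes named, 9 had an annotated ORF, among 13694 genes that did, and all 9 passed the filter on low counts. Ier2 was listed only with ORFs outside the annotated class, so it is described separately.

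Ribosome profiling was done on neonatal rat ventricular cardiomyocytes from Sprague-Dawley rats of postnatal day 2, in 2 libraries of cells exposed to phenylephrine (PE) at 20 µM for 24 h and 2 libraries of untreated control cells. PE is an agonist of α1-adrenergic receptors that makes cultured cardiomyocytes grow. The method counts RNA fragments protected by ribosomes, so that a value combines the amount of an mRNA with how heavily it was translated, and the 2 cannot be told apart here. Cells had been plated briefly to remove other cell types, and the labels do not say whether the 2 libraries of a group came from separate cultures. P-values therefore measure only the spread between these libraries, which may be technical.

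Early-response genes are transcribed within minutes of a stimulus from factors already present in the cell, without new protein synthesis. Serum response factor, with its ternary complex partners, and CREB bind their promoters and pass on signals from MAP kinases, calcium and cyclic AMP. Their mRNAs and proteins are usually short-lived, and a later plateau, where one exists, differs from gene to gene. NR4A receptors and EGR factors are induced in the heart by adrenergic stimulation, and MYC drives genes of ribosome production and growth.

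After PE, footprints on Nr4a3, Ier3 and Myc rose, and those on Nr4a1, Egr1, Egr2, Ier5, Klf4 and Klf6 did not pass the test. The quasi-likelihood test of edgeR, adjusted by Benjamini-Hochberg over 12609 tested ORFs with a threshold of 0.05, called 3 of the 9 ORFs higher and 0 lower. Of all tested ORFs, 21.4% were called higher and 21.3% lower, 42.7% in all, so that 3 of 9 is near the background. At an unadjusted p under 0.05, 0 members were lower, and DESeq2 also called 3 higher and 0 lower, where it called 13.6% of ORFs higher and 13.6% lower. The median log2 fold change of the members was 0.05, against 0.00041 for all tested ORFs. In a test against a 1.5-fold change, 2 members passed, Nr4a3 and Ier3, both higher, where 3.64% of tested ORFs passed as higher and 4.36% as lower.

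**Figure D1:**
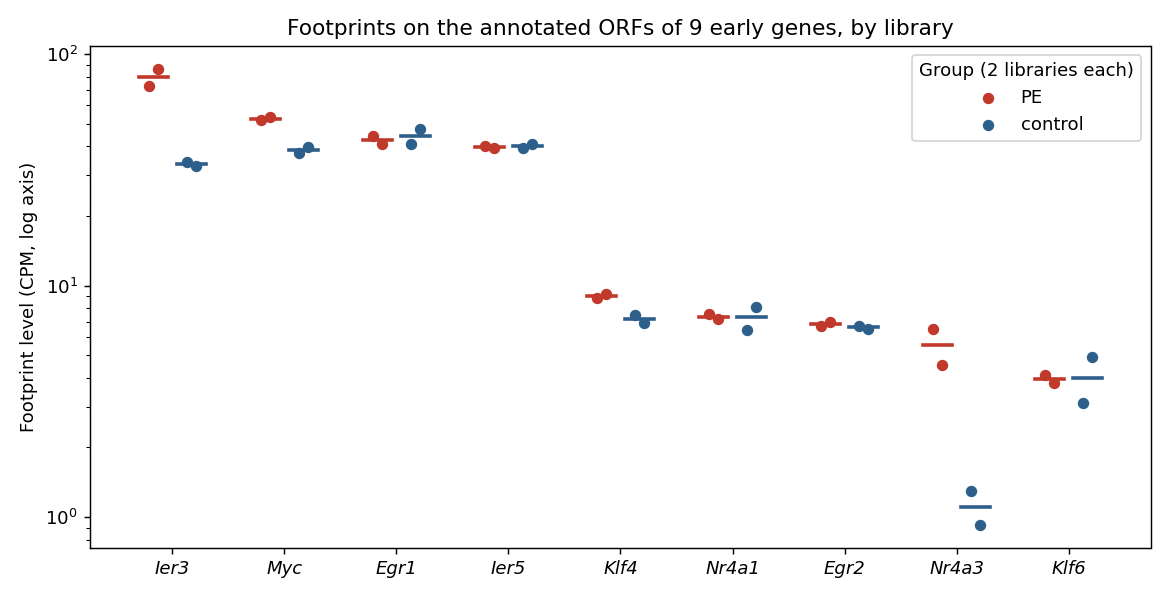
Footprint level (CPM, log axis) on the annotated ORF of each of the 9 early genes, ordered by the PE mean, with PE libraries in red left of control libraries in blue; points are libraries and bars are group means. The PE points lie above the control points for Ier3, Myc, Klf4 and Nr4a3, and the groups overlap for the other 5 genes. Of all tested ORFs, 34.4% had both PE libraries above both control libraries.

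Nr4a3, an orphan nuclear receptor also called NOR-1, lies on Rnor_6.0 chromosome 5 (63787824 to 63819835, introns included), where an ORF of 1884 nt codes for 628 residues. It had 78 and 56 counts in the PE libraries and 15 and 13 counts in the control libraries. These were 6.51 and 4.55 CPM in PE, against 1.29 and 0.926 CPM in control, footprints scaled to library size with TMM factors. Both PE libraries were above both control libraries, and the 2 PE libraries stood further apart than the control libraries. Nr4a3 rose by 2.33 ± 0.32 on the log2 scale (SE), 5.01-fold, at an edgeR adjusted p = 3.5e-07. The counts are low, and its log2 fold change lay between 2.04 and 2.56 as each library was left out in turn.

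Nr4a1, the receptor also called NUR77, is on chromosome 7 (142915500 to 142919636), with an ORF of 1791 nt. It had 7.52 and 7.14 CPM in PE and 6.45 and 8.12 CPM in control. The PE values lay between the control values, and the log2 fold change was -0.0026 ± 0.18 (SE) at an edgeR adjusted p = 0.99. Both receptors bind the same response element, so their relative level was computed within each library, a comparison chosen after the values were seen. There were 0.867 and 0.636 Nr4a3 counts per Nr4a1 count in PE, against 0.200 and 0.114 in control. Their log2 fold changes differed by 2.33 ± 0.37 (SE of the difference), and the 2-sided exact permutation test gave p = 0.333, the smallest that 2 against 2 libraries allow. The third receptor of the family, Nr4a2, had 3 and 3 counts in PE and 2 and 4 counts in control and was too low to test, with 0.125 counts for each P-site of the deposited annotation.

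The P-site is the codon position in the ribosome that the authors assigned to each footprint, pooled over libraries. Counts and P-sites come from different columns, and how the P-sites were turned into counts was not stated. The median tested ORF had 1.17 counts per P-site. Nr4a1, Nr4a3, Egr1, Egr2 and Myc were close to that, between 1.12 and 1.21. Ier3 had 0.701, Ier5 0.714, Klf4 0.520 and Klf6 0.0531 counts per P-site. The Klf6 values therefore rest on few counts beside its P-sites, and the cause was not tested. The share of P-sites in the reading frame of the ORF was between 81.8% for Egr1 and 89.4% for Nr4a3, where all ORFs together had 84.7%.

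**Figure D2:**
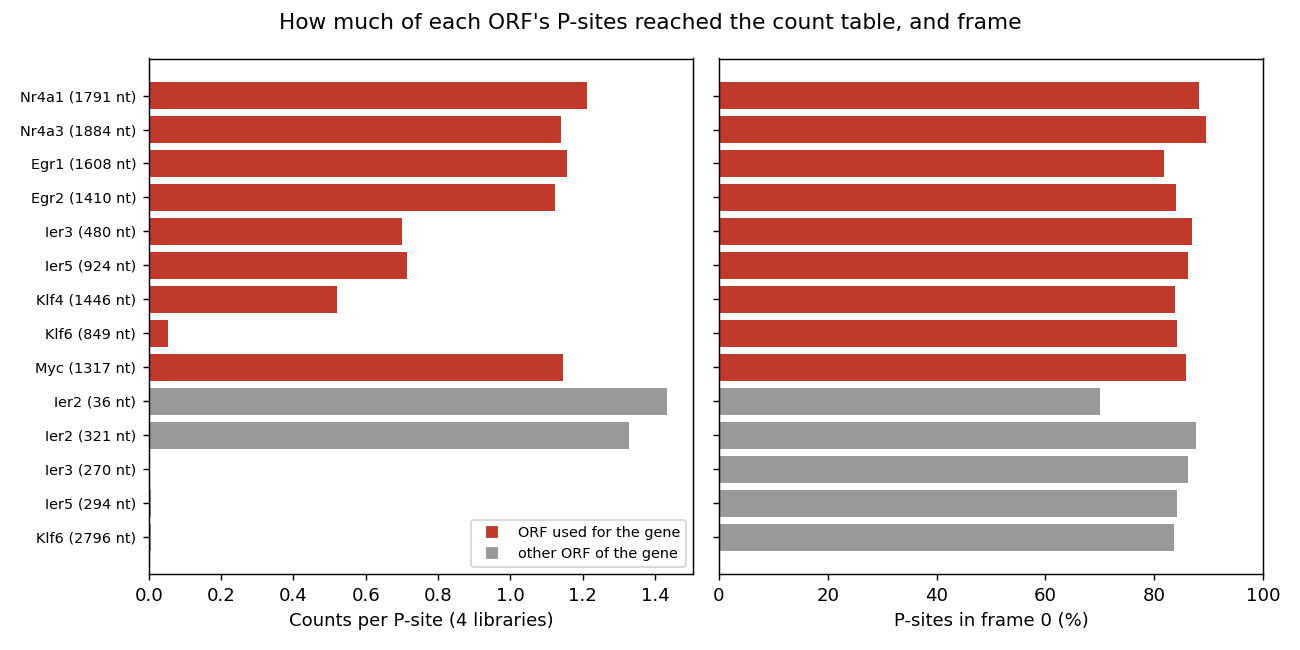
Counts per P-site over the 4 libraries (left) and percent of P-sites in frame 0 (right) for the 9 ORFs used (red) and the 5 other ORFs listed under the same genes (grey). Klf6 has 0.0531 counts per P-site, and the second ORFs of Ier3, Ier5 and Klf6 have almost none although their P-sites are in frame.

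Egr1 and Egr2 are zinc finger factors that bind GC-rich sites, and both are classical targets of serum response factor. Windows of 30 bases with a CArG box, the element bound by serum response factor, are shown because they are what these members' promoters share with Klf6. The boxes, in capitals, were found by searching 300 bases of promoter from RefSeq (build GRCr8, 250 bases before the start site and 50 after it, both strands).
Egr1, chr18:26736963-26736992, plus strand: gtcggtccttCCATATTAGGgcttcctgct
Egr1, chr18:26736985-26737014, plus strand: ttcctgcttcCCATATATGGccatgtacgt
Egr2, chr20:21054505-21054534, minus strand: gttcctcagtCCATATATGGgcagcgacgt
Klf6, chr17:69458660-69458689, minus strand: aataggaaggCCTTTAATGGagaggctcgg
The boxes of Egr1 begin 105 and 83 bases before the start site, that of Egr2 83 bases and that of Klf6 201 bases before it. Of 33469 promoters in the table, 1.64% hold a CArG box, and of the 7 promoters of the named genes in the table, 3 do. The searched promoters included none for Nr4a3, Ier3 or Myc, so no share among the 7 covers the 3 members called higher.

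Egr1 (chromosome 18, 27657819 to 27660101, ORF of 1608 nt) had 44.2 and 41.0 CPM in PE and 40.8 and 47.5 CPM in control. The groups overlapped, with a log2 fold change of -0.06 ± 0.08 (SE) and an edgeR adjusted p = 0.60. Egr2 (chromosome 20, 22455669 to 22458411, ORF of 1410 nt) had 6.68 and 6.98 CPM in PE and 6.71 and 6.48 CPM in control, a log2 fold change of 0.05 ± 0.19 (SE). Egr3 had 0 and 0 counts in PE and 4 and 0 counts in control and was not tested, and no annotated ORF was listed for Egr4.

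The corepressors NAB1 and NAB2, which bind EGR factors and limit their activity, both rose. Nab2 had 46.3 and 51.5 CPM in PE, against 36.6 and 32.2 CPM in control, and rose by 0.51 ± 0.08 on the log2 scale (SE; edgeR adjusted p = 4.1e-06). Nab1 had 40.0 and 37.5 CPM in PE and 31.3 and 27.7 CPM in control, and rose by 0.40 ± 0.09. For both, the groups did not overlap, as for 68.6% of all tested ORFs. Neither passed the test against a 1.5-fold change (adjusted p = 1 in edgeR glmTreat for both). Within each library there were 0.955 and 0.797 Egr1 counts per Nab2 count in PE, against 1.12 and 1.47 in control. That ratio, chosen after the values were seen, had a 2-sided exact permutation p = 0.333, the smallest possible.

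The IER genes code for small regulators that are not related as a structural family throughout. IER3, also called IEX-1, modulates cell survival and ERK signalling, and IER5 is a nuclear regulator known for its link to heat shock factor and protein phosphatase 2A. Ier3 (chromosome 20, 3439381 to 3439970, ORF of 480 nt) had 869 and 1065 counts in PE and 399 and 459 counts in control, or 72.6 and 86.5 CPM in PE and 34.3 and 32.7 CPM in control. Both PE libraries were more than double either control library. Ier3 rose 2.38-fold, by 1.25 ± 0.08 on the log2 scale (SE; edgeR adjusted p = 4.6e-15). A second annotated ORF of Ier3, of 270 nt with the same start, had 1380 P-sites and 0 counts in all libraries.

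Ier5 (chromosome 13, 72743190 to 72744116, ORF of 924 nt) had 40.0 and 39.3 CPM in PE and 39.5 and 40.8 CPM in control. The groups overlapped, with a log2 fold change of -0.02 ± 0.08 (SE) and an edgeR adjusted p = 0.86. Ier3 counts per Ier5 count were 1.81 and 2.20 in PE, against 0.869 and 0.801 in control, a ratio that did not overlap between groups (2-sided exact permutation p = 0.333, the smallest possible; chosen after the values were seen). A shorter annotated ORF of Ier5, of 294 nt, had 0 to 2 counts per library. Ier5l, a gene named for its likeness to Ier5, rose by 0.30 ± 0.11 (edgeR adjusted p = 0.024). That call was lost without PE replicate 1 (adjusted p = 0.30) or control replicate 2 (adjusted p = 0.28), and with library totals in place of TMM scaling (adjusted p = 0.052).

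Ier2, a nuclear early-response protein, was listed with 2 unannotated ORFs on 1 transcript of chromosome 19. The longer, of 321 nt (25775212 to 25775582), had 180 and 232 counts in PE and 145 and 186 counts in control, with 87.7% of its P-sites in frame. Scaled to library size, both PE libraries were above the control libraries, and it was called higher by 0.39 ± 0.13 on the log2 scale (SE; edgeR adjusted p = 0.016). The call did not hold without PE replicate 2 (adjusted p = 0.32) or control replicate 1 (adjusted p = 0.062), in DESeq2 (adjusted p = 0.15) or once the dependence on ORF length was removed (adjusted p = 0.089). The shorter, of 36 nt (25774917 to 25774955), had 43 and 36 counts in PE and 16 and 34 counts in control and did not pass (edgeR adjusted p = 0.066), although it did without control replicate 2 (adjusted p = 0.020) and without the filter on low counts (adjusted p = 0.045). These are values of the 2 listed ORFs and not of the Ier2 protein as a whole. The Ier2 promoter holds the full cyclic AMP response element (CRE, TGACGTCA), in capitals here, that CREB binds.
Ier2, chr19:40399296-40399325, plus strand: tggcgtttcagTGACGTCActcttactcta
The element begins 66 bases before the start site in GRCr8. It is found in 1.83% of promoters on either strand, and in 1 of the 7 of the named genes.

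The Nr4a1 promoter holds 4 copies of the core of this element (TGACG, either strand) without the full one. The window nearest the start site is shown, with the core, read on the other strand, in capitals.
Nr4a1, chr7:134260073-134260102, plus strand: cccctctccatgCGTCAcggagcgcttaag
The core is common, present in 21.2% of promoters, and 4 of the 7 promoters had at least 1. A full element contains the core on each strand, so both searches count the Ier2 site. The NR4A response element (AAAGGTCA) was in 0 of the 7 promoters and in 1.43% of all. An EGR site (GCGGGGGCG) was in 1 of the 7, that of Nr4a1, and in 2.73% of all, while the variant GCGTGGGCG was in 0 of the 7 and in 0.544% of all. The E-box CACGTG, which MYC and MAX bind, was in 1 of the 7, that of Klf6, and in 6.42% of all.

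Krüppel-like factors are zinc finger proteins that bind GC-rich and CACCC sites. Klf4 (chromosome 5, 72284154 to 72287593, ORF of 1446 nt) had 106 and 113 counts in PE and 87 and 97 counts in control, or 8.85 and 9.17 CPM in PE and 7.49 and 6.91 CPM in control. The PE libraries were both above the control libraries, but the log2 fold change of 0.33 ± 0.17 (SE) did not pass (edgeR adjusted p = 0.12). Klf6 (chromosome 17, 67899033 to 67904674, ORF of 849 nt) had 49 and 47 counts in PE and 36 and 69 counts in control. Its control libraries lay on either side of the PE libraries, and the log2 fold change was -0.04 ± 0.26 (SE; edgeR adjusted p = 0.92). A second annotated ORF of Klf6, of 2796 nt, spans the position of the first with 3618 P-sites. It had 9 and 6 counts in PE and 2 and 4 counts in control, too few to test. The Klf6 test describes the counts of the 849-nt ORF alone.

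Outside the members, 10 other KLF genes were tested, of which 1 was higher and 3 were lower. Klf2, a factor known for its role in endothelial cells and in monocytes, had 6.26 and 6.09 CPM in PE, against 12.7 and 16.9 CPM in control. It fell by 1.27 ± 0.16 on the log2 scale (SE; edgeR adjusted p = 1.1e-07), 2.42-fold lower in PE. Klf15, which restrains cardiac growth and promotes fatty acid use in the mouse heart, had 10.0 and 9.42 CPM in PE and 24.4 and 20.5 CPM in control, and was 2.29-fold lower in PE (edgeR adjusted p = 3.7e-09). Both passed the test against a 1.5-fold change (adjusted p = 4.5e-04 for Klf2 and 1.1e-04 for Klf15 in edgeR glmTreat).

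Klf9, a glucocorticoid-responsive factor, fell by 0.36 ± 0.14, and that call was lost without any single one of the 4 libraries (edgeR adjusted p of 0.082 to 0.13). Klf5 rose by 0.71 ± 0.25 with 0.189 counts per P-site, and lost its call without PE replicate 1 (adjusted p = 0.14) or control replicate 2 (adjusted p = 0.14). The other 6, Klf3, Klf10, Klf11, Klf12, Klf13 and Klf16, did not pass, with log2 fold changes of -0.52 to 0.25. The 12 tested KLF genes, members included, had a median log2 fold change of -0.0038.

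**Figure D3:**
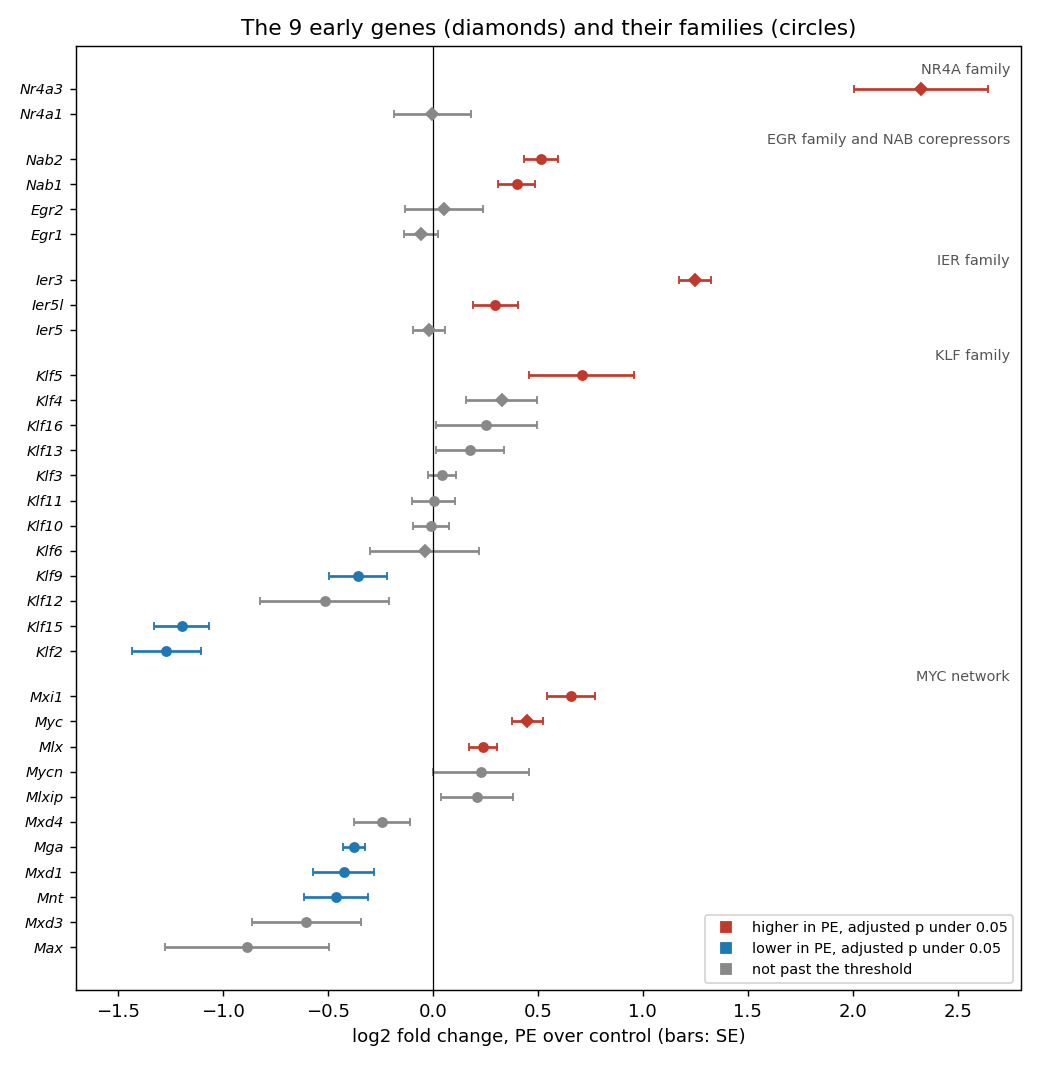
Log2 fold change of PE over control with its SE for the tested members (diamonds) and the other tested genes of their families (circles), in family groups. Nr4a3 at 2.33 and Ier3 at 1.25 lie farthest to the right, and Klf2 at -1.27 and Klf15 beside it farthest to the left.

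Cell type markers moved as well. Of 5 tested endothelial markers 3 were lower, with a summed level of 120 and 130 CPM in PE, against 213 and 203 CPM in control. Of 6 macrophage and leukocyte markers 5 were lower, at 256 and 256 CPM in PE and 381 and 360 CPM in control. Of 7 fibroblast markers 5 were lower and 1 higher, at 20814 and 21049 CPM in PE and 34404 and 34672 CPM in control. The largest parts of that sum in control, Postn, Col1a1 and Col3a1, fell by 1.06, 0.59 and 1.72 on the log2 scale. The higher marker was Dcn, by 0.70, and Lum did not pass. Of 6 smooth muscle and pericyte markers 5 were lower and 1 higher, at 1830 and 1843 CPM in PE and 2111 and 2145 CPM in control. Cnn1 was the higher one, by 2.19 on the log2 scale, at 253 and 252 CPM in PE and 57.7 and 53.3 CPM in control. Of 8 cardiomyocyte markers 5 were lower and 2 higher, and they summed to 51156 and 51528 CPM in PE and 55182 and 55319 CPM in control. Of these, Myh6 fell most, from 6562 and 6610 CPM in control to 2614 and 2689 CPM in PE, with 0.190 counts per P-site. Ryr2 fell by 0.87 on the log2 scale, from 1873 and 1907 CPM in control to 1034 and 1035 CPM in PE, and Tnni3 by 0.20. Myh7, with the highest level, and Actn2 each fell by 0.06 on the log2 scale. The 2 higher were Tnnc1, by 0.68, and Tnnt2, by 0.17. Of all genes with a tested annotated ORF, 22.8% were lower and 22.3% higher, and whether any of the 5 marker lists differs from that was not tested. No listed marker of these 5 types was at 0 in all libraries. The fibroblast marker Col1a2 was not tested, with 0 and 2 counts in PE and 0 and 0 counts in control beside 158850 P-sites. In such bulk libraries, fewer cells of a type and less RNA per cell cannot be told apart. The part of cell composition in the fall of Klf2, or in any other value here, was not tested.

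MYC is a basic helix-loop-helix factor that acts as a dimer with MAX. Myc (chromosome 7, 102588478 to 102590796, ORF of 1317 nt) had 620 and 659 counts in PE and 434 and 556 counts in control, or 51.8 and 53.5 CPM in PE and 37.4 and 39.6 CPM in control. The groups did not overlap, and Myc rose by 0.45 ± 0.07 on the log2 scale (SE), 1.37-fold, at an edgeR adjusted p = 5.7e-06. It did not pass the test against a 1.5-fold change (adjusted p = 1 in edgeR glmTreat).

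Of 10 other tested genes of the MYC network, 2 were higher and 3 lower. Mxi1, a MAX partner that opposes MYC, rose by 0.66 ± 0.12 (edgeR adjusted p = 1.9e-05), and the related Mlx rose by 0.24 ± 0.07. Of other MAX partners, Mga fell by 0.38 ± 0.05, Mnt by 0.46 ± 0.15 and Mxd1 by 0.43 ± 0.15. Mlx lost its call without PE replicate 2 (adjusted p = 0.061), Mnt without PE replicate 2 (adjusted p = 0.22) or control replicate 1 (adjusted p = 0.050), Mxd1 without either PE replicate or control replicate 2 (adjusted p of 0.058 to 0.12), and Mga once the dependence on ORF length was removed (adjusted p = 0.16). Max itself had a log2 fold change of -0.89 ± 0.39 with 0.126 counts per P-site and did not pass (adjusted p = 0.068). Mycn had 0.23 ± 0.23 and did not pass.

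Levels were compared between genes per kilobase of ORF, as CPM per kb. In PE the order was Ier3 at 166, Ier5 at 42.9, Myc at 40.0, Egr1 at 26.5, Klf4 at 6.23, Egr2 at 4.85, Klf6 at 4.66, Nr4a1 at 4.09 and Nr4a3 at 2.94 CPM per kb. In control it was Ier3 at 69.8, Ier5 at 43.5, Myc at 29.2, Egr1 at 27.4, Klf4 at 4.98, Klf6 at 4.72, Egr2 at 4.68, Nr4a1 at 4.07 and Nr4a3 at 0.588 CPM per kb. In PE, neighbours in this order overlapped between libraries for Egr2 and Klf6. In control, Myc overlapped with Egr1, and Klf6 overlapped with Klf4, Egr2 and Nr4a1, while the libraries of Nr4a1 lay below those of Egr2. Ier3 in PE was above 91.9% of the 11286 genes with a tested annotated ORF, and Nr4a3 in control was above 2.60% of them. The levels of Ier3, Ier5, Klf4 and Klf6 are those of the members furthest below the median ORF in counts per P-site. These genes had at most 0.714, where the median was 1.17 and the other members had at least 1.12. Klf6 is the extreme case, at 0.0531 counts per P-site. It had 3788 P-sites on 849 nt, against 1980 on 1317 nt for Myc and 1880 on 1608 nt for Egr1. Its place in this order therefore holds for counts alone.

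**Figure D4:**
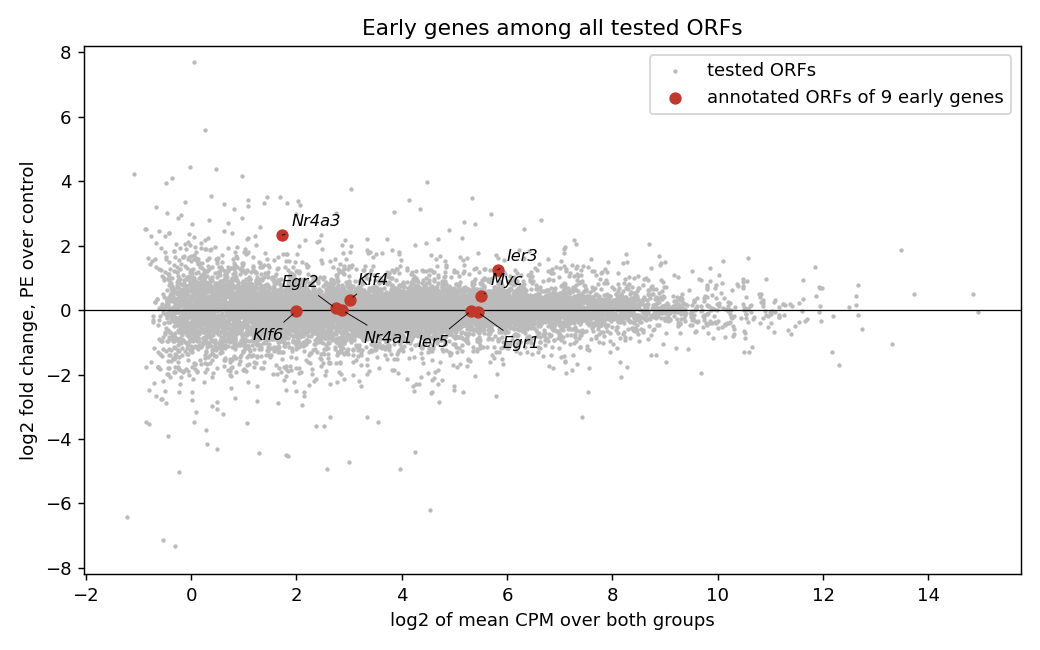
Log2 fold change of PE over control against log2 of the mean CPM for all 12609 tested ORFs (grey) and the annotated ORFs of the 9 early genes (red). Nr4a3 at 2.33 and Ier3 at 1.25 lie above the bulk of the points, and Egr1, Egr2, Ier5, Nr4a1 and Klf6 lie within 0.06 of 0.

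Serum response factor, CREB and genes listed with them were measured too. Of 6 tested genes of serum response factor and its partners, 1 was higher and 1 lower. Myocd, a muscle coactivator of serum response factor, had 92.7 and 94.7 CPM in PE and 55.6 and 62.4 CPM in control, and rose by 0.66 ± 0.06 on the log2 scale (edgeR adjusted p = 6.5e-11). Srf itself fell by 0.30 ± 0.10, a call lost without PE replicate 1 (adjusted p = 0.079) or control replicate 2 (adjusted p = 0.097). The ternary complex factors Elk1, Elk3 and Elk4 did not pass, with log2 fold changes of -0.31, -0.07 and 0.01. Of 9 tested CREB genes, 1 was higher and 1 lower. Creb3 rose by 0.31 ± 0.05, and the acetyltransferase Crebbp fell by 0.30 ± 0.05, a call lost once the dependence on ORF length was removed (adjusted p = 0.37). Creb1 itself had a log2 fold change of 0.29 ± 0.22 with 0.291 counts per P-site and did not pass (edgeR adjusted p = 0.31).

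Other early-response genes outside AP-1 moved in both directions. Of 31 tested, 17 were higher and 6 lower, or 54.8% and 19.4%, where 22.3% and 22.8% of genes with a tested annotated ORF were, and their median log2 fold change was 0.43. The list was chosen with earlier results of these data known, so its shares are not evidence of an excess over all genes. Whether the listed genes differ from the members as a group was not tested. Cyr61 and Ctgf, matricellular proteins, rose by 0.92 ± 0.02 and 0.64 ± 0.02. The kinases Sik1 and Plk2 rose by 1.58 ± 0.06 and 0.74 ± 0.03. Ptgs2, the inducible cyclooxygenase, named after its value was seen, had 56.6 and 59.4 CPM in PE, against 13.2 and 11.4 CPM in control, and rose by 2.25 ± 0.10 (edgeR adjusted p = 2.9e-19). Lower were the kinase Sgk1 at -0.32 ± 0.06, the repressor Hes1 at -0.28 ± 0.06, the interferon regulatory factor Irf1 at -0.25 ± 0.08 and the neuronal early gene Arc at -1.22 ± 0.37. The calls of Irf1 and Arc were lost without PE replicate 1 (adjusted p of 0.11 and 0.054), of Irf1 also without control replicate 2 (adjusted p = 0.071) and of Arc also without control replicate 1 (adjusted p = 0.095). Among AP-1 genes, the log2 fold changes were 1.21 for Fos, 0.65 for Junb, 0.78 for Fosl1 and -0.17 for Jun, of which Fosl1 did not pass. The call of Jun was lost without PE replicate 1 (adjusted p = 0.19) or control replicate 1 (adjusted p = 0.28). DESeq2 did not call Jun, Irf1, Arc, Srf, Ier5l, Klf5, Klf9, Mlx, Mnt or Mxd1, with adjusted p of 0.070 to 0.24.

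**Figure D5:**
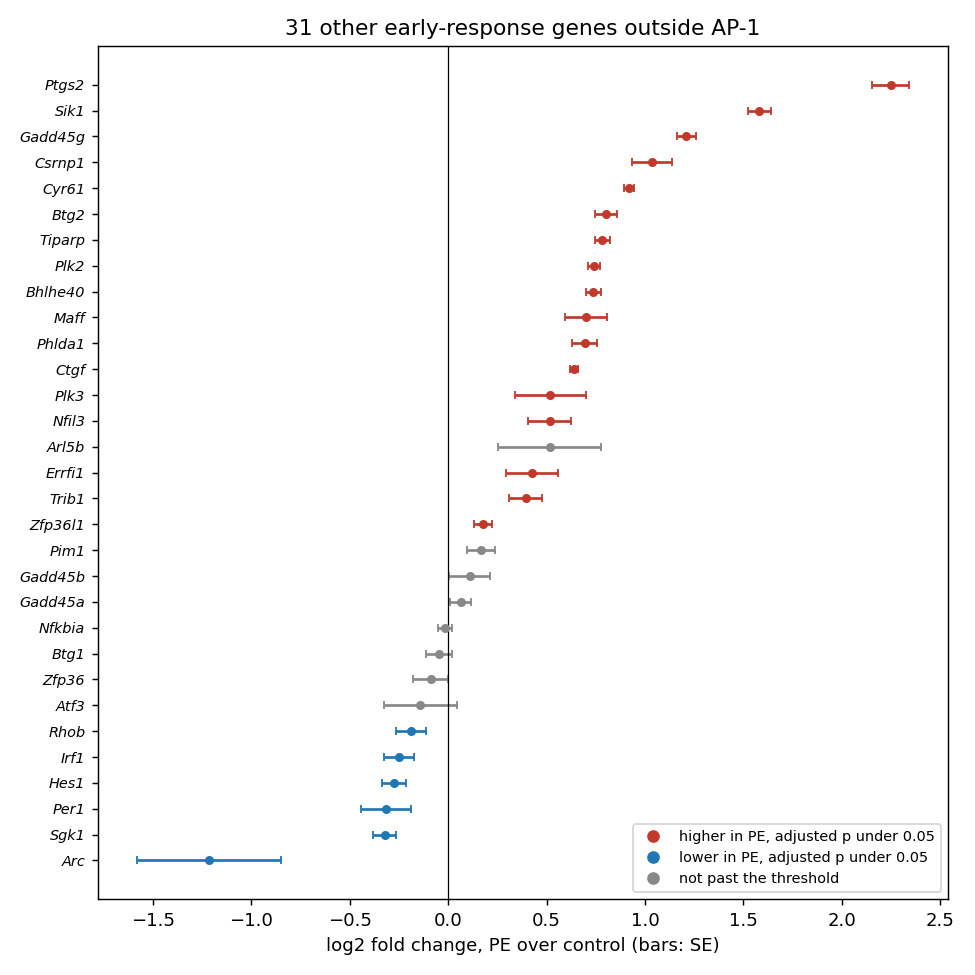
Log2 fold change of PE over control with its SE for 31 early-response genes outside AP-1 and outside the members, ordered by value. Of the 31, 17 are higher (red), 6 lower (blue) and 8 not past the threshold (grey), with Ptgs2 at 2.25 at the top and Arc at -1.22 at the bottom.

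The ORFs most like Nr4a3 in their pattern were those of Lif, Tlcd2 and Nap1l5. Likeness was the distance between log2 CPM deviations from each ORF's mean over the 4 libraries, searched among 10576 annotated ORFs of other genes. The distances were 0.324 for Lif, 0.408 for Tlcd2 and 0.418 for Nap1l5. Lif, an interleukin-6 family cytokine, had 9.69 and 8.77 CPM in PE, against 1.98 and 1.71 CPM in control. Nearest to Egr1, the member with the lowest log2 fold change, were Smarcd1, Pias2 and Plcb3, at distances of 0.010, 0.024 and 0.029. Deviations were not scaled to equal size, and those of Egr1, which did not pass the test, were small. The distances from Egr1 therefore cannot be compared with those from Nr4a3. A distance over 4 libraries describes these libraries only.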

How the data were processed

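The deposited files are a table of raw footprint counts over 18847 ORFs, made by the authors, and an annotation that, per the file headers, holds ORF class, coordinates, pooled P-sites per frame and the authors' own DESeq2 log2 fold changes, p-values, adjusted p-values and a normalized mean count signal. The genome was Rnor_6.0 and the tools STAR 2.4.2a, Bowtie 1.1.2 and cutadapt 2.0, per the submitters' processing notes, and for the ORF caller and counter none is given in the sources used here. Library totals were 12117629 and 12537740 in PE and 11446574 and 13827599 in control. Groups were taken from sample titles, since the treatment text mentions PE for all libraries. Chi-square per degree of freedom between replicates was 1.61 in PE and 1.64 in control, above sampling noise.

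The test was edgeR 4.0.16 under R 4.3.3, with robust quasi-likelihood fits over all 4 libraries. Before it, filterByExpr removed low counts and TMM scaled the libraries, by 0.982 to 1.02. SE is the log2 fold change over the square root of F. Small changes can pass, since the common biological coefficient of variation was only 2.18%. The fit was tested on simulated data. All 9 members were named, from each list up to 4 called genes per direction and the tested members of the NR4A, EGR, IER and KLF families. Members and lists were chosen with earlier results of these data known. The authors' deposited table gave Nr4a3, Ier3 and Myc adjusted p of 9.4e-06, 3.1e-26 and 5.0e-04 and did not call the others. Alternatives used DESeq2 1.42.0, other scalings, filters and sets of libraries or ORFs. Per-sample columns left unused numbered 0.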

Additional observations from a re-analysis of the deposited data

How the results depend on the processing

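The calls of Nr4a3, Ier3 and Myc held under other scalings, no filter, DESeq2, removal of the length trend, restricted or summed ORFs and each left-out library, with adjusted p of at most 8.9e-06, 1.8e-14 and 4.8e-04, and members called stayed at 3 higher and 0 lower. The test against a 1.5-fold change called 2 and that against 1.2-fold 3. The replicate block also gave 3 members higher and changed no member's call. The labels do not pair the libraries, and same-numbered libraries deviated with a correlation of 0.012.

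Among all genes with a tested annotated ORF, 22.3% were higher and 22.8% lower. Of 69 tested related genes outside the members, 25 were higher, 17 of them from the list of other early genes. Lower were 14 of the 69, with 6 from that list. Fewer were called higher by DESeq2, 20 of the 69. DESeq2 called 6 lower, and leaving out 1 library gave 8 to 9 lower and 21 to 25 higher. Of the 5 other ORFs of the member genes, 1 was called higher. That was 2 without the filter, 0 with DESeq2, 0 after removal of the length trend, and 0 to 2 with 1 library left out. Where the tool or the fit changed, the cause was not tested; a left-out library leaves fewer samples, and the lone sample of its group is then assumed to vary like the others.

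The values whose sign turned did not pass the test in any of these settings. Nr4a1 had 0.0043 with DESeq2, 0.0037 with the replicate block, 0.039 after removal of the length trend, 0.0034 among annotated ORFs and 0.0051 when ORFs under 0.5 counts per P-site were dropped, a restriction chosen after seeing the data. Klf6 had 0.089 with its annotated ORFs summed, and Klf11 had -0.041 with library totals. With 1 library left out, log2 fold changes ran from -0.15 to 0.18 for Nr4a1, -0.16 to 0.059 for Egr1, -0.047 to 0.0028 for Ier5, -0.32 to 0.35 for Klf6, -0.086 to 0.058 for Klf10, -0.010 to 0.34 for Klf13 and -0.034 to 0.037 for Klf11. Low counts limit Nr4a3, Klf6 and Egr3, and Klf6 had the fewest counts per P-site of the members.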
